A study of Mus musculus with 6 samples.

Results

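Purkinje cells are the output neurons of the cerebellar cortex, and the genes followed here are a list of 9 Purkinje cell identity genes. Most of the 9 are used to recognise these cells or to describe how they acquire their identity. The list holds Pcp2, Pcp4, Calb1, Pvalb, Car8, Rora, Lhx1, Lhx5 and Cck. Every probe set that the array annotation assigns to a single symbol from this list was taken, which gave 12 probe sets for the 9 genes, out of 12422 probe sets in all. Rora, Pcp2 and Pvalb were each measured by more than 1 probe set.

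The arrays compared L1cam knockout with wild type cerebellum at postnatal day 11, with 3 arrays in each group. The knockout mice were labelled male and L1CAM knockout (-/Y), since L1cam, a cell adhesion molecule of axons, lies on the X chromosome. The wild type mice were siblings on the same background, given as 129S2/SvPasCrlf in the sample labels and as congenic 129Sv in the design text, with no sex stated. RNA came from the cerebellum, and the labels do not state which part of the gene was removed.

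Purkinje cells arise before birth and spend the first postnatal weeks growing their dendritic trees, while granule neurons are still being born around them. Lhx1 and Lhx5 are LIM homeodomain transcription factors of young Purkinje cells, and Rora is the nuclear receptor that is defective in the staggerer mouse, in which Purkinje cells fail to mature. Pcp2, Pcp4, Calb1, Pvalb and Car8 encode abundant proteins of the mature cell that act on G proteins, calmodulin, calcium and inositol trisphosphate signalling. Some of the genes are not limited to Purkinje cells: Pvalb is also found in molecular layer interneurons, and Cck is a neuropeptide of many neurons in other brain regions.

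Promoter sequence is shown for 4 of the genes, because their probe sets illustrate the patterns described below: Cck was the only gene of the list whose groups did not overlap, and Pcp2, Pvalb and Pcp4 belong to the set of mature Purkinje genes. The RefSeq promoter table of build GRCm38.p6 held 10 promoters for 6 of the 9 genes, each running from 250 bases before to 50 bases after an annotated start. Capitals mark matches, on either strand, to the nuclear receptor half-site AGGTCA, the core of the element bound by Rora, to the CRE-like element TGCGTCA and to the TATA-like element TATTTAA. None of these matches overlapped another. All sequences are written 5′ to 3′ on the transcribed gene's sense strand. They lie at chr8:3625498-3625797 on the minus strand for Pcp2, at chr16:96467356-96467655 on the plus strand for Pcp4, at chr15:78206351-78206650 on the minus strand for Pvalb and at chr9:121495645-121495944 on the minus strand for Cck.
Pcp2: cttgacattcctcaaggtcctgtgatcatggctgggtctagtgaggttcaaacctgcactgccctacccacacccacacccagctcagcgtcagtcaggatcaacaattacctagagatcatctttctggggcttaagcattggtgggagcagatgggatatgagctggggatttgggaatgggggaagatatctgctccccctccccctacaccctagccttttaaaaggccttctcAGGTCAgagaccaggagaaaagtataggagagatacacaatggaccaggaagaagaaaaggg
Pcp4: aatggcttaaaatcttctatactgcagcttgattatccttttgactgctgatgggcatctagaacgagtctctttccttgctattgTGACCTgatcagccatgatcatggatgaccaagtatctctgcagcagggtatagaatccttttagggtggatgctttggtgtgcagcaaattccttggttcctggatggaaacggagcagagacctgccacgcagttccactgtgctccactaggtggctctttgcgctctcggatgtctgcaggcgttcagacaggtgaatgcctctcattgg
Pvalb: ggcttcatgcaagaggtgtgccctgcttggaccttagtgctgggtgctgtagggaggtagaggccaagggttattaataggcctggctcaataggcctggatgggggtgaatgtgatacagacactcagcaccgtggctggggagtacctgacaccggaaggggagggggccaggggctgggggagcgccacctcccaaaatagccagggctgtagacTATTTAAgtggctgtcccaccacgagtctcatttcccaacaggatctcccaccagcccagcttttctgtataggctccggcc
Cck: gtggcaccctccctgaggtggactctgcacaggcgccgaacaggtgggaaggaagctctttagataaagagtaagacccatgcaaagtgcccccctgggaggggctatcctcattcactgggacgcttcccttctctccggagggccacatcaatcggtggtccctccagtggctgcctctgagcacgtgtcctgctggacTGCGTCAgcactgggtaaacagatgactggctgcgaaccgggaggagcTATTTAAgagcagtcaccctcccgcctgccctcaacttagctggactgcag

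AGGTCA began 12 bases before the start of Pcp2, and its reverse complement lay 164 bases before that of Pcp4. Of the 10 promoters, 4 held it. These were the Pcp4 window and 3 Pcp2 windows, 2 of which overlap and share the site shown. Among all 32851 promoters of the same length, 16.3% held it. TGCGTCA was found 49 bases before the Cck start, in 1 of the 10 promoters, against 2.12% of all promoters. TATTTAA was held by 2 of the 10 promoters, against 4.51% of all promoters. It began 32 bases before the Pvalb start. In Cck it began 1 base before the annotated start and so ran across it. Every window shown holds a match. The Lhx1 and Rora windows, the other Pvalb window and the Pcp2 window at chr8:3625233-3625532 hold none of these motifs. Such matches are of letters in a window, and the arrays measure nothing about binding at them. Whether these few promoters hold the motifs more often than others was not tested, and the counts do not show it.

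Array medians ran from 8.87 to 8.94 on the log2 scale after RMA, the authors' normalization. L1cam, the targeted gene, read 8.25, 8.01 and 7.91 in the knockouts, against 8.79, 8.48 and 8.73 in wild type. Its difference was -0.60 (SE 0.10), with no overlap between groups, a limma adjusted p of 0.841 and an exact permutation p (2-sided) of 0.1, the lowest value 3 arrays against 3 can reach. The array labelled knockout 1 stood apart. Its 3′ minus 5′ signal of the Gapdh control, which widens when RNA is shorter, was 0.67, and the other arrays lay between -0.048 and 0.13. The same gap of the beta-actin control was also widest there, at 1.09. Other controls did not set this array apart. The gap of pyruvate carboxylase was 0.88 there and 0.85 in wild type 1. That of the transferrin receptor was 1.33 there and widest in knockout 3, at 1.48. The Eif2s3y signal of knockout 1, from the Y chromosome, was 7.11, and the other arrays, all 3 wild type ones included, read at least 8.59. This goes against its label as male. Uty, also Y-linked, read 6.67 there and at least 7.32 elsewhere, whereas Kdm5d, at 7.22, was nearly the same in wild type 2, and Xist lay between 6.31 and 6.41 on all arrays. Values without this array are given beside many of the results below. The tissue label fitted the brightest members: Pvalb, Pcp2, Calb1 and Car8 lay at percentiles 99.7, 98.8, 96.7 and 96.3 of mean level. The brightest single-symbol probe sets of the others lay lower: Lhx1 at 71.9, Rora at 53.3, Lhx5 at 42.9, Cck at 34.8 and Pcp4 at 11.4.

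No member probe set reached a limma adjusted p of 0.05, nor did any other of the 12422, so that 0% were called. Cck was lower in every knockout array than in any wild type array, at 83.6% of the wild type level. For the other 8 genes the 95% interval of every probe set included 0. At an unadjusted p under 0.05 there was 1 member probe set, that of Cck, against 5.08% of all probe sets, or 2.62% counted on the lower side alone. The groups did not overlap for that 1 probe set either, against 10.4% of all probe sets in either direction and 6.63% with the knockouts lower. A count of 1 in 12 is near these shares. The adjusted p of the 12 ran from 0.885 to 0.995.

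**Figure D1:**
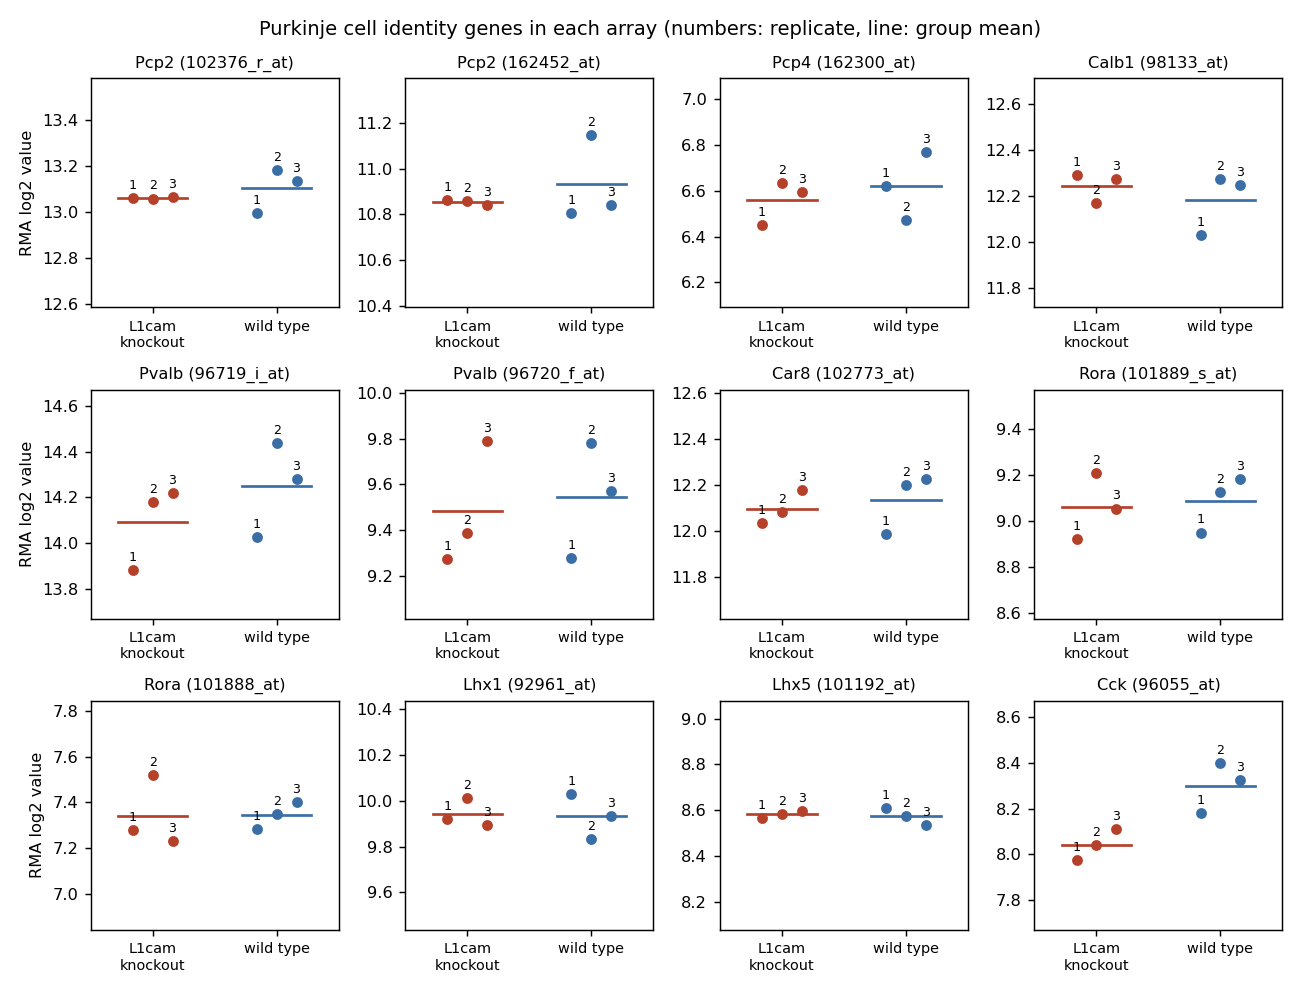
RMA log2 values (vertical axes, each spanning 1 log2 unit) of the 12 probe sets of the 9 Purkinje cell identity genes in 3 L1cam knockout arrays (left, red) and 3 wild type arrays (right, blue), with replicate numbers and group means as lines. Cck is the only panel in which the groups do not overlap, and the knockout points of Pcp2 lie almost on top of each other.

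Pcp2, also known as L7, binds the alpha subunits of Gi and Go proteins and is made almost only by Purkinje cells and retinal bipolar cells. Its probe set 102376_r_at read 13.06, 13.06 and 13.07 in the knockouts, against 13.00, 13.18 and 13.13 in wild type. The 3 knockout values spanned only 0.0059 and lay inside the wild type range. The mean was 13.06 ± 0.0030 in the knockouts and 13.11 ± 0.097 in wild type (SD, n = 3 each). This puts the knockout level at 97.1% of wild type (95% interval 87.7% to 107%, limma adjusted p = 0.951). Probe set 162452_at read 10.86, 10.86 and 10.84 in the knockouts, against 10.81, 11.15 and 10.84 in wild type, where replicate 2 stood above the other 5 arrays. The difference was -0.076 (95% interval -0.27 to 0.12), and it was 0.031 without wild type 2.

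Pcp4, or PEP-19, is a small protein that binds calmodulin and speeds its exchange of calcium. Its single-symbol probe set, 162300_at, was dim, at percentile 11.4 of mean level. It read 6.45, 6.63 and 6.60 in the knockouts, against 6.62, 6.47 and 6.77 in wild type, so the groups overlapped in part, with knockout 1 lowest and wild type 3 highest. The difference was -0.062 (95% interval -0.25 to 0.13), -0.0076 without knockout 1 and 0.012 without wild type 3. A second probe set, 160899_at, lists both Igsf5 and Pcp4 in the annotation and so could not be assigned to either gene. It was bright, at percentile 98.5, and read 12.81, 12.84 and 12.86 in the knockouts, against 12.70, 13.16 and 13.03 in wild type. Its difference was -0.13 (95% interval -0.35 to 0.10), and its order of wild type arrays was that of Pcp2 at 102376_r_at, with replicate 1 lowest and replicate 2 highest.

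The calcium buffers differed in sign. Calb1, calbindin, which binds calcium in the Purkinje soma, dendrites and axon, read 12.29, 12.17 and 12.27 in the knockouts, against 12.03, 12.27 and 12.25 in wild type. Wild type 1 was the lowest array, and the other 5 lay within 0.12 of each other. The mean was 12.24 ± 0.066 in the knockouts and 12.18 ± 0.13 in wild type (SD, n = 3 each), a difference of 0.060 with a 95% interval of -0.11 to 0.23 and a limma adjusted p of 0.943. Without wild type 1 the difference was -0.016. Calb1 was the member with the largest positive difference, at 104% of wild type (95% interval 92.6% to 117%).

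Pvalb, parvalbumin, is a slow-onset calcium buffer of Purkinje cells and of molecular layer interneurons. Its probe set 96719_i_at read 13.88, 14.18 and 14.22 in the knockouts, against 14.03, 14.44 and 14.28 in wild type. Replicate 1 was the lowest array within each genotype. The difference was -0.15 (SE 0.11, 95% interval -0.41 to 0.10), or 89.9% of wild type, and the adjusted p in limma was 0.932. Without knockout 1 the difference was -0.049, and without wild type 1 it was -0.26. Probe set 96720_f_at, of a type whose probes may also match related transcripts, read 9.28, 9.39 and 9.79 in the knockouts, against 9.28, 9.78 and 9.57 in wild type. Its difference was -0.060 (95% interval -0.38 to 0.26), and 0.044 without knockout 1. Pvalb was the most variable of the 9 genes: the pooled SD within genotype was 0.20 and 0.26, at percentiles 96.5 and 99.05 of all probe sets, where the median probe set had 0.086.

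Car8 encodes a carbonic anhydrase relative without catalytic activity that binds the inositol trisphosphate receptor of Purkinje cells and lowers its affinity for its ligand. It read 12.03, 12.08 and 12.18 in the knockouts, against 11.99, 12.20 and 12.22 in wild type, and the groups overlapped. The mean was 12.10 ± 0.074 in the knockouts and 12.14 ± 0.13 in wild type (SD, n = 3 each). This is 97.3% of wild type, with a 95% interval of 86.3% to 110% and an adjusted p of 0.965 in limma. The difference was -0.040, and it was -0.0072 without knockout 1 and 0.0043 without wild type 3.

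The transcription factors had the differences closest to 0 in the deposited values. Rora read 8.92, 9.21 and 9.05 at probe set 101889_s_at in the knockouts, against 8.95, 9.13 and 9.18 in wild type. Its other probe set, 101888_at, was dim, at percentile 21.5 of mean level. There Rora read 7.28, 7.52 and 7.23 in the knockouts, against 7.28, 7.35 and 7.40 in wild type. Knockout 2 was the highest array at both. The differences were -0.025 (95% interval -0.22 to 0.17) and -0.0029 (95% interval -0.19 to 0.18), and both changed sign under several settings. Without knockout 1 they were 0.046 and 0.030. Lhx1 read 9.92, 10.01 and 9.89 in the knockouts, against 10.03, 9.83 and 9.94 in wild type, a difference of 0.0093 (95% interval -0.15 to 0.16). Lhx5 read 8.57, 8.58 and 8.60 in the knockouts, against 8.61, 8.58 and 8.53 in wild type. Its difference was 0.0094 (95% interval -0.12 to 0.14). Lhx5 was also the steadiest gene of the list, with a pooled SD of 0.030, at percentile 2.91 of all probe sets. The 4 probe sets of the transcription factors had limma adjusted p-values between 0.978 and 0.995.

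Cck encodes the precursor of the neuropeptide cholecystokinin. It read 7.98, 8.04 and 8.11 in the knockouts, against 8.18, 8.40 and 8.32 in wild type. All 3 knockout arrays lay below all 3 wild type arrays, and the gap between the highest knockout and the lowest wild type array was smaller than the range within either group. The mean was 8.04 ± 0.069 in the knockouts and 8.30 ± 0.11 in wild type (SD, n = 3 each). The difference was -0.26 (SE 0.073, 95% interval -0.42 to -0.095), or 83.6% of wild type (95% interval 74.7% to 93.6%). The limma adjusted p was 0.885, short of the threshold, and an exact permutation test (2-sided) gave 0.1, the floor for this design. Without knockout 1 the difference was -0.22, and over the single omissions it ran from -0.32 to -0.21. The probe set lay at percentile 34.8 of mean level, in the dimmer part of the array. In whole tissue, fewer cells of a type and less RNA per cell cannot be told apart, here or for any other gene.

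**Figure D2:**
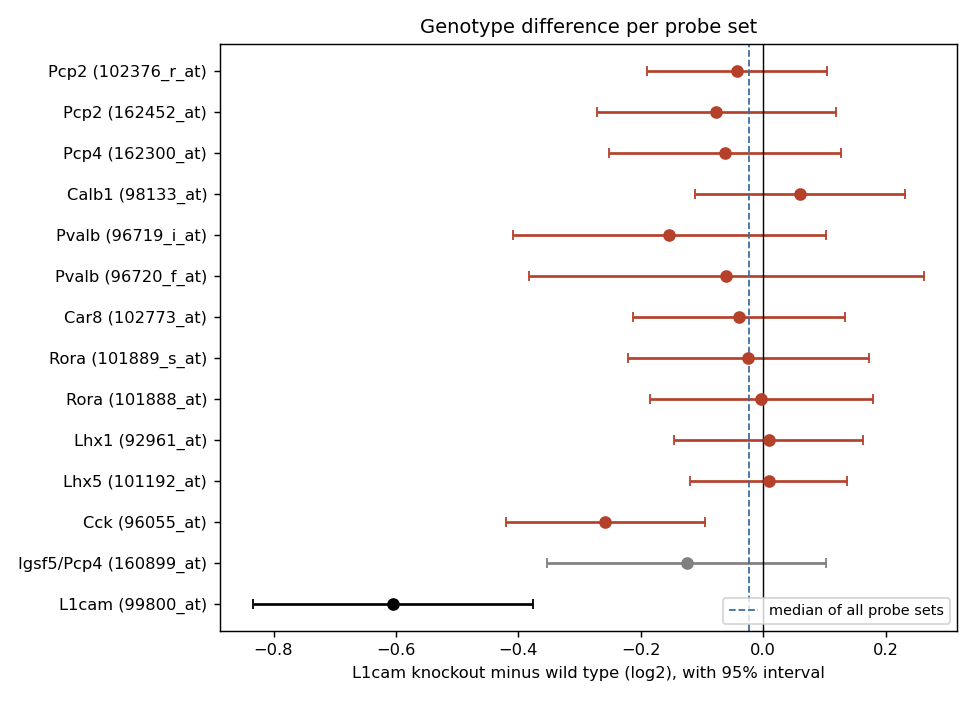
Difference between L1cam knockout and wild type (horizontal axis, log2, knockout minus wild type) with its 95% interval from limma for the 12 probe sets of the 9 genes (red), the probe set that lists Igsf5 and Pcp4 (grey) and L1cam (black). The dashed line is the median of all probe sets, -0.023, and among the red points only the interval of Cck, -0.42 to -0.095, leaves out 0.

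Of the 12 probe sets, 9 had a lower mean in the knockouts and 3 a higher one, beside 62.3% of all probe sets with a lower mean. The median difference was -0.041 over the 12 and -0.040 without Cck, and it was -0.023 over all probe sets. Without knockout 1 the count was 6 of 12 and the median 0.0050, beside 60.5% of all probe sets lower. After median centring of the arrays, which adds 0.032 to every difference, the count was 7 of 12 and the median -0.0093, beside 44.6% of all probe sets lower and a median of 0.0089. With the Gapdh difference as a covariate 4 of 12 were lower and the median was 0.013. Over all probe sets 60.3% were lower then, with a median of -0.021.

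Arrays of the same genotype differed from each other in a partly shared way. Knockout 1 and wild type 1 were the lowest array for 5 and 4 of the 12 probe sets, and wild type 2 was the highest for 4. Knockout 1 lay below the 6-array mean for 11 of the 12, knockout 2 and knockout 3 for 6 each, wild type 1 for 8, and wild type 2 and wild type 3 for 3 each. The median deviation over the 12 was -0.076, -0.0094 and -0.0065 in the knockouts, against -0.087, 0.070 and 0.057 in wild type. Low and high arrays thus stood in both genotypes. The wild type arrays had the wider range for 9 of the 12 probe sets, beside 45.3% of all probe sets. The genes did not all follow this order: wild type 1 was the highest wild type array for Lhx1 and Lhx5, stood between the others for Pcp4, and was the lowest for the remaining probe sets.

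**Figure D3:**
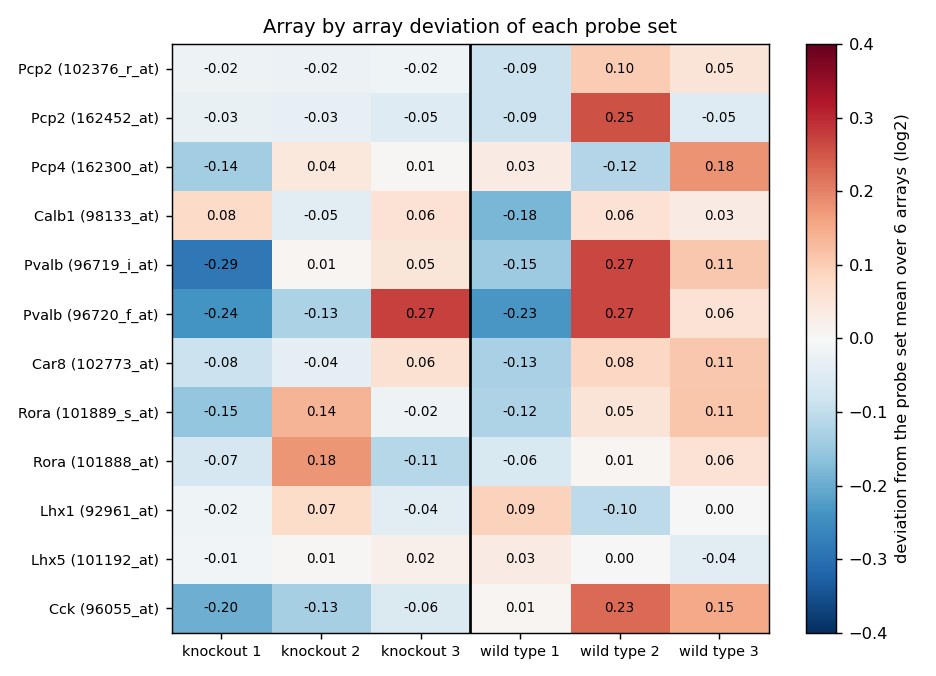
Deviation of each array from the mean over 6 arrays (colour and numbers, log2) for the 12 probe sets (rows) in the knockout arrays (left of the line) and wild type arrays (right). Pvalb spans -0.29 in knockout 1 to 0.27 in wild type 2, Lhx5 spans -0.045 in wild type 3 to 0.033 in wild type 1, and only in the Cck row do all knockout cells lie below all wild type cells.

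Other genes of Purkinje cells, taken from a list of 35 of which 22 had a probe set with 1 symbol, gave no call. The list was not restricted to genes found only in Purkinje cells, so its values are not a measure of these cells alone. Of the 22, 20 had a lower mean in the knockouts and 2 a higher one, with a median of -0.067, beside 61.7% lower and a median of -0.022 over all 8251 genes. Without knockout 1 the count was 14 of 22 and the median -0.030, and after median centring 16 of 22 and -0.035. The groups did not overlap, with the knockouts lower, for 3 of the 22, beside 6.69% of all genes. They were Dab1, the adaptor of reelin signalling that positions Purkinje cells, the neurofilament Nefm and the morphogen Shh, at differences of -0.11, -0.080 and -0.067.

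The smallest unadjusted p in the wider list belonged to En2, a homeobox factor of the cerebellar territory. It read 12.35, 12.18 and 12.44 in the knockouts, against 12.40, 12.51 and 12.60 in wild type, with a difference of -0.18 (SE 0.082, limma adjusted p = 0.922). Atp2b2, the plasma membrane calcium pump of Purkinje dendrites, read 8.77, 9.08 and 9.08 in the knockouts, against 9.03, 9.13 and 9.59 in wild type, where replicate 3 stood high. Cacna1g, the T-type calcium channel, read 8.97, 9.09 and 9.27 in the knockouts, against 9.07, 9.43 and 9.52 in wild type. As for Pvalb, replicate 1 was the lowest array in each genotype. The neurofilament Nefh differed by -0.12, and its limma adjusted p was 0.927.

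Genes close to the members in function or family gave no call either. Of 7 genes reported lower in Rora mutant Purkinje cells, 5 were measured, with 3 lower and 2 higher and a median of -0.043. All 5 appear above already: Calb1, Pcp2 and Pcp4 are members, and Shh and Slc1a6 are in the wider list. The median was -0.0076 without knockout 1 and -0.011 after median centring. Slc1a6, the glutamate transporter of Purkinje spines, was the higher one beside Calb1, at 0.039. Of 11 other LIM factors and cofactors measured, 10 were lower (median -0.072). Ldb2 and Ldb1, the cofactors that bind LIM homeodomain proteins, differed by -0.14 and -0.097, and Lmo2 by 0.11. After median centring 8 of the 11 were lower, with a median of -0.040.

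Among 13 other EF-hand proteins 7 were lower and 6 higher. Cetn2, a centrosomal centrin, read 8.83, 8.80 and 8.81 in the knockouts, against 8.59, 8.68 and 8.36 in wild type, with no overlap and an adjusted p of 0.885 in limma. Hpca, hippocalcin, also did not overlap, at a difference of 0.11, and Ocm, oncomodulin, differed by -0.14. Cetn2 and Hpca were the 2 of the 13 without overlap, both higher in the knockouts, beside 330 of all 8251 genes in that direction. Of 12 calmodulin-binding proteins and Go or Gi subunits, the molecules that Pcp4 and Pcp2 act on, 7 were lower and 5 higher. Gap43, a growth cone protein that binds calmodulin, read 12.39, 12.41 and 12.29 in the knockouts, against 12.17, 12.17 and 12.21 in wild type, all 3 knockout arrays being higher (limma adjusted p = 0.922). Gap43 was the only 1 of the 12 without overlap. Gnao1, the alpha subunit of Go, differed by -0.11 and Camk2b by -0.074.

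Of 8 other carbonic anhydrases 5 were lower, with Car4 at -0.12, Car2 at -0.13 and Car5a at -0.082. The nuclear receptors Nr1d2 and Nr1d1, which recognise the same element as Rora, differed by -0.12 and 0.017. In the cholecystokinin list of receptors, processing enzymes and other neuropeptides, 13 of 14 were lower and 1 higher, with a median of -0.066, and after median centring 12 were lower. Sst, somatostatin, differed by -0.12 and Npy, neuropeptide Y, by -0.097, and Npy was lower in every knockout array than in any wild type array. Cckar, the receptor that binds sulphated cholecystokinin, read 7.56, 7.54 and 7.45 in the knockouts, against 7.59, 7.65 and 7.59 in wild type. That probe set was dim, at percentile 24.6, and did not pass (limma adjusted p = 0.927). Npy and Cckar were the 2 of the 14 that were lower without overlap, and 1 other gene was higher without overlap. Over all 8251 genes, 552 were lower and 330 higher without overlap.

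**Figure D4:**
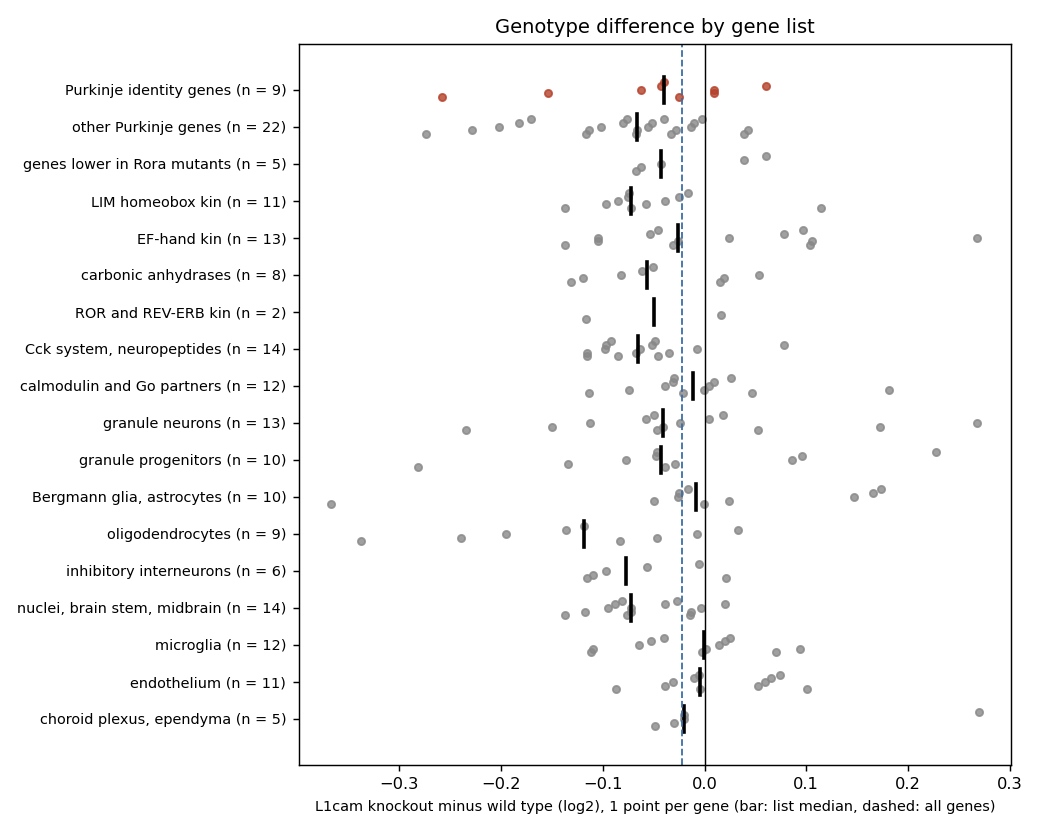
Difference between L1cam knockout and wild type (horizontal axis, log2, knockout minus wild type), 1 point per gene, for the 9 Purkinje identity genes (red) and 17 other lists (grey), with each list's median as a bar and the median of all genes, -0.022, dashed. The list medians lie between -0.12 for oligodendrocytes and -0.00043 for microglia, and no point passed an adjusted p of 0.05.

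Markers of other cell types that share the tissue were read beside these values. Because Cck and Pvalb are not limited to Purkinje cells, the interneuron and brain stem lists bear on them most closely. Of 6 interneuron genes, among them Sst and Npy of the neuropeptide list, 5 were lower (median -0.077), and their array medians ran from 9.13 to 9.20 in the knockouts, against 9.15 to 9.27 in wild type. Of 14 genes of cerebellar nuclei, brain stem and midbrain 13 were lower (median -0.072), beside 61.7% of all genes. Their array medians ran from 7.72 to 7.93 in the knockouts, against 7.85 to 7.91 in wild type. After median centring 4 of the 6 and 9 of the 14 were lower, with medians of -0.045 and -0.041, beside 44.6% of all probe sets. Hoxb3 and Prph, both lower in every knockout array, differed by -0.14 and -0.12 and lay at percentiles 38.0 and 24.6 of mean level. They were the 2 of the 14 with the knockouts lower and no overlap, beside 6.69% of all genes. The part of these cells in the Cck difference was not tested.

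Of 9 oligodendrocyte genes 8 were lower (median -0.12), and the median was -0.026 without knockout 1. Mal and Mobp, myelin proteins, differed by -0.24 and -0.34. Of 10 granule progenitor genes 7 were lower (median -0.043), with Ptch1 at -0.28 and Atoh1 at -0.13, and without knockout 1 the count was 8 and the median -0.094. Of 13 granule neuron genes 8 were lower (median -0.041), with Nfia at -0.15 and Pax6 at 0.17, and without knockout 1 the count was 10 and the median -0.023. Bergmann glia and astrocyte genes had 6 of 10 lower (median -0.0084), with Aqp4 at -0.37 and Fabp7 at 0.17. Microglia had 6 of 12 lower and 6 higher (median -0.00043), with Cx3cr1 and C1qb, both among the lower, at -0.11 each. Endothelium had 6 of 11 lower, with Cdh5 at 0.10 and Emcn at -0.087, and choroid plexus 4 of 5, with Folr1 at -0.049 and Foxj1 at -0.030. Ttr, transthyretin of the choroid plexus, singled out after its values were seen, read 12.56, 12.43 and 10.20 in the knockouts, against 9.71, 12.55 and 12.13 in wild type. Kl, klotho, was likewise lowest in knockout 3 and wild type 1, and the other 4 arrays read between 8.14 and 8.26. These signals thus varied widely between arrays within each genotype, and their part in the Purkinje gene values was not tested. No marker passed an adjusted p of 0.05, the lowest in limma being 0.885 for Aqp4, and no marker list has a probe set at 0, since RMA values have no true zero.

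Array by array, several lists followed the Purkinje genes, and others ran against them. Counted with 1 probe set per gene, the 9 Purkinje identity genes had a median deviation of -0.085, 0.0055 and 0.0055 in the knockouts, against -0.087, 0.059 and 0.11 in wild type. The 22 other Purkinje genes stood at -0.11, -0.030 and 0.040 in the knockouts, against -0.077, 0.077 and 0.085 in wild type. Both lists were lowest in replicate 1 of each genotype. The oligodendrocyte list stood at -0.25, -0.00086 and 0.068 in the knockouts, against -0.075, -0.023 and 0.17 in wild type, and was likewise lowest in replicate 1 of each. The granule progenitor list stood at 0.073, -0.022 and -0.10 in the knockouts, against 0.094, -0.010 and -0.055 in wild type, and was highest in those same 2 arrays. The EF-hand, calmodulin and nuclear receptor lists were also lowest in replicate 1 of each genotype, and the endothelium list was also highest there. This is a description of 6 mice, noticed after the values were seen, and its cause was not tested.

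**Figure D5:**
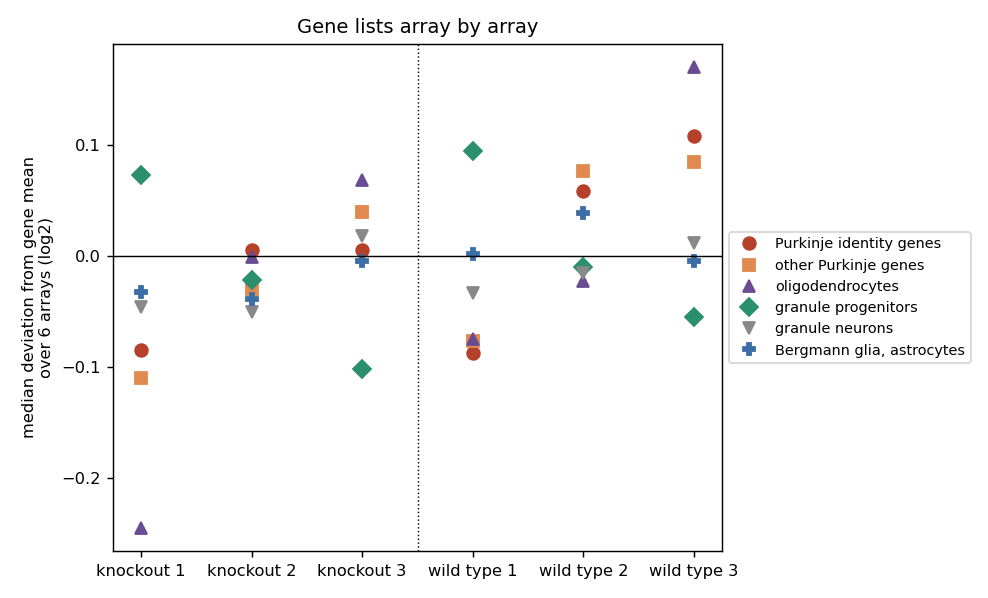
Median deviation from the gene means (vertical axis, log2) of 6 gene lists in each knockout array (left) and wild type array (right). The Purkinje and oligodendrocyte lists lie lowest and the granule progenitor list highest in knockout 1 and wild type 1.

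The profile of the 9 genes over the arrays, taken as their mean deviation with 1 probe set per gene, was -0.093, 0.0031 and 0.0060 in the knockouts, against -0.056, 0.062 and 0.077 in wild type. The 5 non-member probe sets most like it, by Pearson r over the 6 arrays, were those of Cdh15, a cadherin (r = 0.994), Jtb (r = 0.986), Rab10, a GTPase of membrane traffic (r = 0.981), Anapc1, a subunit of the anaphase-promoting complex (r = 0.980), and Glrb, the beta subunit of the glycine receptor (r = 0.978). All 5 were lowest in knockout 1 and next lowest in wild type 1. With 6 arrays and 10833 probe sets compared, 33 non-member probe sets reached r of at least 0.95, and all values share the same 6 arrays and their scaling. Among the members themselves r ran from 0.940 for Pvalb at 96719_i_at and 0.901 for Car8 down to -0.425 for Lhx1 and -0.481 for Lhx5, although each member also entered the mean it was compared with.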

How the data were processed

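Total RNA of 6 cerebella was labelled with biotin and hybridised to Affymetrix U74Av2 arrays, per the labels' protocols. The deposited values are log2 expression per probe set, which the authors computed by RMA according to the submitters' processing notes. The version and settings are not stated there. RMA brings arrays to 1 distribution, so a change in total RNA per cell cannot be read. Of 12488 probe sets, 66 array controls were left out. The annotation gave 1 symbol for 10833 of the rest, and the symbols of all 12 member probe sets matched the RefSeq table.

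Genotype was tested with limma 3.58.1 in R 4.3.3 (lmFit, eBayes, 2-sided, Benjamini-Hochberg over all 12422 probe sets, threshold 0.05). The fit was tested on simulated data with independent noise, variances drawn from the fitted prior and no effect shared within an array. It called 92% of 1.5-fold and 100% of 2-fold changes, with 9 false calls. The arrays here shared patterns over many genes, so these rates cannot be carried over to them. Arrays carry no read depth, and their number limits the precision: the 95% interval reached 0.16 to either side at the median probe set. Each array is 1 mouse, as the design text counts them. Lists used the probe set with the highest mean per gene. Named were all member probe sets, L1cam, the 6 genes of the wider Purkinje list and 3 of each other list with the smallest unadjusted p, 2 of each marker list and the 5 most like the members. Slc1a6, Ttr, Kl and the sex-linked genes were singled out after their values were seen. Members and lists were chosen with earlier results of these data known. The main fit did not pair arrays by replicate number. Deviations from the genotype mean correlated at 0.16, -0.32 and 0.17 for same-numbered arrays, and from -0.40 to 0.24 for other pairs. Taking deviations from a mean of 3 arrays constrains these correlations, so they cannot decide whether the arrays were paired.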

Additional observations from a re-analysis of the deposited data

How the results depend on the processing

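The results were recomputed with 3 other scalings (median centring, quantile, cyclic loess), with dim probe sets removed below percentile 40 (which left 9 of the 12 and removed Cck, Pcp4 and Rora at 101888_at), with a trended and robust variance, with a replicate block, with the Gapdh difference as a covariate, and without each array in turn. No member probe set passed 0.05 under any of the 13 settings, and L1cam did not pass where it was fitted, with a difference between -0.70 and -0.53 over the single omissions. The count of probe sets past the threshold was 0 to 1 over the single omissions, the 1 being no member and arising without knockout 3. With the replicate block the differences are the same by construction, and the adjusted p of Cck in limma was 0.579 with the block, beside a lowest value of 0.571 over the settings, without knockout 2. Cck, Pcp2 at 102376_r_at and Pvalb at 96719_i_at kept their sign in every setting that held them, 12 for Cck and 13 for the others. Of 153 pairs of member probe set and setting, 24 had another sign, none past the threshold. With the Gapdh covariate the count of lower members was 4, and the differences were 0.0059 for Car8, 0.016 for Pcp4, 0.044 for Pvalb at 96720_f_at, and 0.051 and 0.072 for Rora at 101888_at and 101889_s_at. Rora at 101888_at was 0.030 after cyclic loess, 0.029 after median centring and 0.036 after quantile normalization, and at 101889_s_at 0.0071 after median centring and 0.0063 after quantile normalization. Over the single omissions the differences ran from -0.016 to 0.10 for Calb1, -0.11 to 0.0043 for Car8, -0.040 to 0.057 for Lhx1, -0.011 to 0.028 for Lhx5, -0.14 to 0.031 for Pcp2 at 162452_at, -0.14 to 0.012 for Pcp4, -0.21 to 0.059 for Pvalb at 96720_f_at, -0.091 to 0.053 for Rora at 101888_at and -0.099 to 0.046 for Rora at 101889_s_at. Over the same omissions the median over the 12 ran from -0.095 to 0.0050, and with the Gapdh covariate it was 0.013. Counting the probe set that lists Igsf5 and Pcp4 as a member, a choice made after seeing the data, gave 10 of 13 lower. The causes of these changes were not tested. With 3 arrays a group, differences within the intervals given cannot be shown.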
